A study of Homo sapiens with 4 samples.

Results

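The 39 S phase and replication genes described here are a fixed list of names that is widely used to score the S phase in single cells. They were chosen by name, from features whose first name equals one of the 39. The rule uses no measured value, but it was set with earlier results of these data known. All 39 were in the gene table, out of 40877 names of a single gene. By role, 9 act in the licensing and firing of replication origins and 3 supply deoxynucleotides. At the fork 7 act as subunits of polymerase, primase or clamp loader, or as clamp, nuclease or single-strand binding protein. A further 3 act in the fork checkpoint or in cohesion, 6 in repair and 9 in chromatin and histone supply. The last pair, CCNE2 and E2F8, are a cyclin and an E2F factor.

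Before the S phase, the origin recognition complex, CDC6 and CDT1 load the MCM helicase onto DNA, and CDC45 and the GINS complex then turn it into a moving fork. Polymerase alpha with primase starts each strand, the clamp PCNA holds the extending polymerases, and ribonucleotide reductase and thymidylate synthase provide the building blocks. Most of these genes are textbook targets of E2F factors, which RB family proteins hold in check until cyclin-dependent kinases release them late in G1, so their transcripts peak around the start of the S phase.

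The cells were of 2 established human lines, H1299 from non-small cell lung cancer and HCT116 from colorectal cancer. Each line was given the solvent DMSO, or DAC and SB939 together (DAC+SB): 500 nM DAC (decitabine, a cytosine analogue that traps DNA methyltransferases once it is built into replicating DNA) over 72 h, and 500 nM SB939 (pracinostat, an inhibitor of histone deacetylases) over 18 h. Fresh medium, again with the compounds, was given each 24 h, and cells were at passage 5 to 10. The libraries were made with the 5′ single-cell chemistry of 10x Genomics. With 1 library for each line and treatment there was no replicate and no test, and with both compounds given together the shares of DAC and of SB939 in a difference cannot be told apart. Each difference below is between libraries, and every interval is a 95% interval for counting error only.

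The libraries held between 3578 and 4327 cells, 15289 in all, and between 38927267 and 64524196 counts of genes and transposable elements (TE). HCT116 DAC+SB was the shallowest, with a median of 8449 counts per cell against 15784.5 to 17369.5 in the others. The median mitochondrial share of a cell's counts was 8.33% (DMSO) and 8.87% (DAC+SB) in H1299 and 15.8% and 18.6% for HCT116. Pairs of libraries shared 18 to 30 cell barcodes. A list of 8 H1299 markers summed to 3060 and 1282 CPM (counts of the genes for each 1000000 gene plus TE counts) with DMSO and DAC+SB in H1299, against 109 and 309 CPM in HCT116. VIM alone made up 2282 and 1151 CPM of this sum in H1299 and 47.0 and 265 CPM in HCT116. A list of 8 HCT116 markers summed to 255 and 772 CPM in H1299 and to 3049 and 3711 CPM in HCT116, of which S100A6 alone made up 2738 and 3335 CPM. Without S100A6 the sum of that list did not separate the lines, at 255 and 683 CPM for H1299 and 311 and 377 CPM for HCT116. KRT18 made up most of this sum and was higher in H1299, at 255 and 676 CPM against 229 and 325 CPM. EPCAM on the same list was higher in HCT116, at 80.7 and 45.2 CPM against 0.0155 and 4.47 CPM in H1299. Of each list, 4 markers were at 0 in the other line with DMSO, and so were 2 HCT116 markers in HCT116 itself.

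In both lines the genes together were lower with DAC+SB. Their summed level was 2660 CPM with DMSO and 1541 CPM with DAC+SB in H1299, which is 42.1% lower (log2 ratio of DAC+SB over DMSO -0.79, interval -0.80 to -0.78). In HCT116 the sum was 2393 and 1529 CPM, which is 36.1% lower (log2 ratio -0.65, -0.66 to -0.63). With a median-of-ratios size factor in place of the total count, the HCT116 sum had a log2 ratio of -0.39. The log2 ratio was 0.14 closer to 0 in HCT116 (0.12 to 0.16), but it was 0.05 further from 0 when only features listed without a number were used. With such features only, the median log2 ratio over all genes compared was also lower. It was -0.17 in H1299 and -0.45 in HCT116, against -0.07 and -0.23 with all features. Per cell, without correction for depth, the sum was 48.0 and 25.8 counts in H1299 and 41.0 and 13.8 counts in HCT116.

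A gene is called lower or higher here where its CPM differed at least 2-fold between the libraries. Of the 39 genes, 15 (38.5%) were lower in H1299, beside 7.34% of the 14610 genes whose higher library held 100 counts or more. In HCT116 14 (35.9%) were lower, beside 20% of 13539 genes. None of the 39 was at least 2-fold higher in H1299, where 18.3% of all genes were, nor in HCT116, where 16.2% were. The share of lower genes thus stood well above the background in H1299 and less far above it in HCT116. Among genes whose higher library held 1000 counts or more, where counting error is small, 35.1% of the 37 such members and 8.79% of all such genes were lower in H1299, and 33.3% of 36 members and 23.6% of all in HCT116.

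The median log2 ratio of the 39 was -0.88 in H1299 and -0.61 in HCT116, beside -0.07 and -0.23 over all genes compared. Over all genes whose higher library held 1000 counts or more, the median was -0.24 in H1299 and -0.44 in HCT116. With the size factor the median of the 39 was -0.79 and -0.35, beside 0.02 and 0.03 over all genes compared. All but SLBP had a ratio below 0 in H1299, and 33 of 39 did in HCT116 (29 with the size factor), beside 54.1% and 59.4% of all genes. At least 4-fold lower were UNG alone in H1299 and TYMS, UNG and MCM5 in HCT116, beside 0.349% and 3.69% of all genes. Of the 39 genes, 11 were lower in both lines, beside 5.2% of the 12644 genes compared in both (MCM2, MCM4, MCM5, MCM6, TYMS, UNG, CDCA7, HELLS, WDR76, BRIP1 and E2F8), which is 11 of the 15 in H1299 and 11 of the 14 in HCT116. Of these 11, 7 passed 2-fold in both lines with the size factor (not MCM4, MCM6, HELLS and WDR76), and 9 did with features without a number only (not MCM2 and HELLS). With a denominator that leaves out mitochondrial and ribosomal protein genes, 9 of them did (not MCM4 and HELLS). DTL, CCNE2, POLD3 and CLSPN passed 2-fold in H1299 only, RRM1, RFC2 and DSCC1 in HCT116 only, beside 1.92% and 14.4% of all genes, and 21 genes in neither. These calls in 1 line rested in part on the setting. With the size factor CLSPN and POLD3 were no longer lower in H1299, nor RFC2 and DSCC1 in HCT116. With features without a number only, POLD3 was lower in HCT116 (-1.27) and not in H1299 (-0.97), DSCC1 was lower in both lines (-1.07 and -1.35), and CLSPN and RFC2 were lower in neither. With such features 9.46% of all genes compared were lower in H1299 and 25.7% in HCT116.

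**Figure D1:**
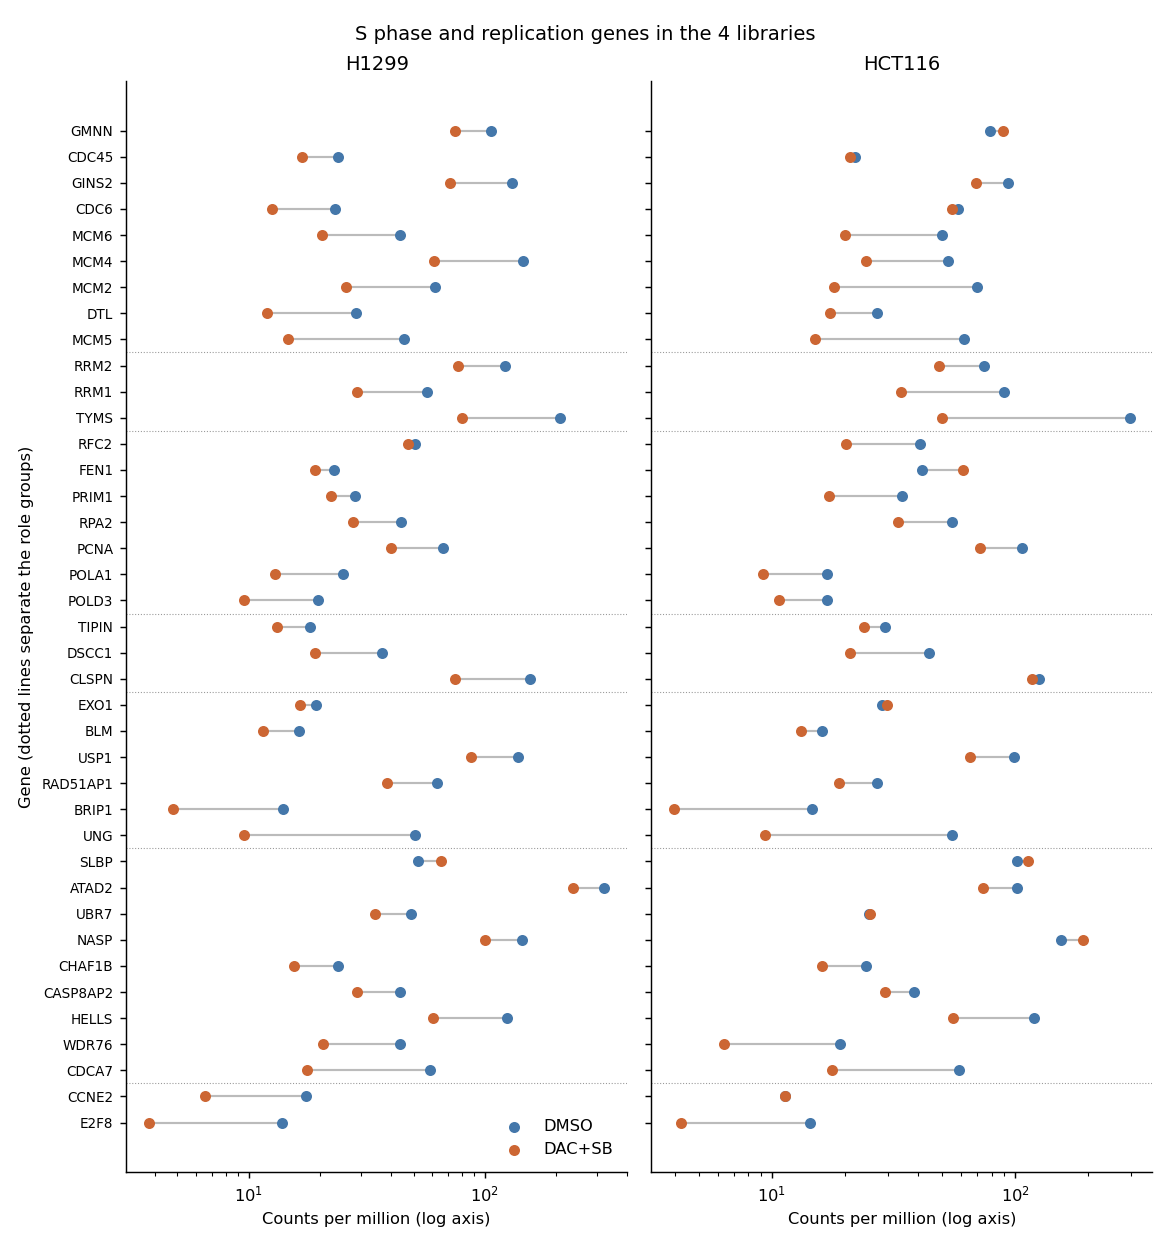
Level of each of the 39 genes in CPM (horizontal log axis) in the DMSO and DAC+SB libraries of H1299 and HCT116, grouped by role, each point being 1 library. In H1299 38 of 39 genes lie to the left with DAC+SB, and in HCT116 33 of 39 do, beside 54.1% and 59.4% of all genes.

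**Figure D2:**
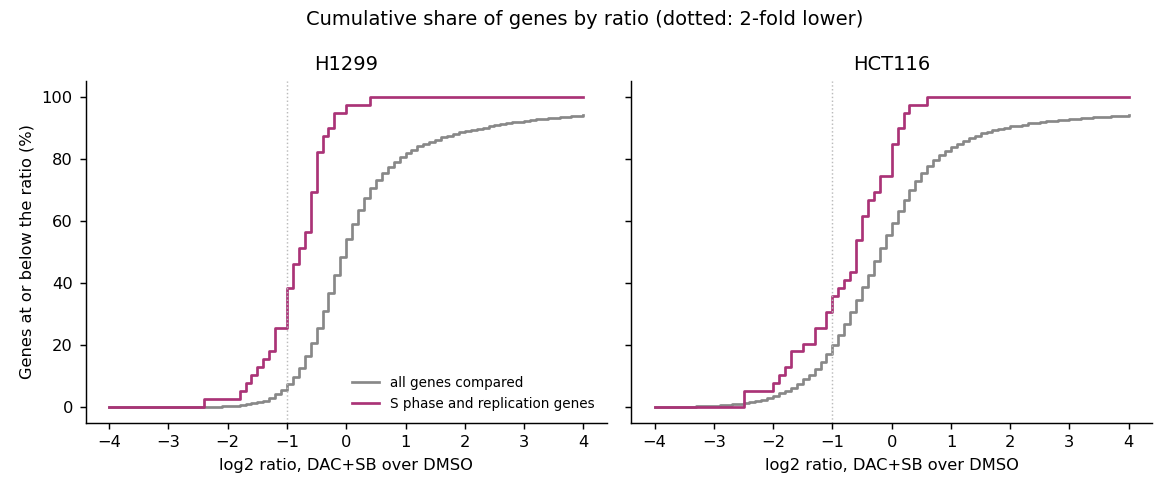
Cumulative share of genes (vertical axis, in percent) at or below each log2 ratio of DAC+SB over DMSO (horizontal axis) for the 39 genes and for all genes whose higher library held 100 counts or more, in each line. At 2-fold lower the curve of the 39 genes is at 38.5% in H1299 and 35.9% in HCT116, against 7.34% and 20% for all genes.

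Origin licensing and firing genes summed to a log2 ratio of -0.97 in H1299 and -0.65 in HCT116 (-0.38 with the size factor). The 4 subunits of the MCM2-7 helicase in the list were lower in both lines. MCM5 (chromosome 22, 35400063 to 35425430, GRCh38) was at 45.4 and 14.7 CPM with DMSO and DAC+SB in H1299 and at 61.5 and 15.1 CPM in HCT116, giving log2 ratios of -1.63 (-1.73 to -1.52) and -2.03 (-2.15 to -1.90). MCM2 (chromosome 3, 127598223 to 127622436) was at 61.6 and 26.0 CPM in H1299 and at 69.8 and 17.9 CPM in HCT116, giving log2 ratios of -1.24 (-1.33 to -1.16) and -1.96 (-2.08 to -1.85). MCM5 levels with DAC+SB were thus close in the lines, whereas MCM2 with DAC+SB was lower in HCT116, and both had the higher DMSO level in HCT116. MCM6 and MCM4 had log2 ratios of -1.09 and -1.24 in H1299 and of -1.32 and -1.12 in HCT116. With the size factor the ratio of MCM6 in H1299 was -0.996 and that of MCM4 in HCT116 -0.86, and with features without a number only the ratio of MCM2 in H1299 was -0.92.

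The other licensing and firing genes had ratios closer to 0 than the helicase subunits in HCT116. CDC6, the loader that brings the helicase to the origin, was at 23.3 and 12.6 CPM in H1299 but at 58.2 and 54.9 CPM in HCT116 (log2 ratio -0.89 and -0.08, the second being 0.05 to 0.18 where the depth was scaled in other ways). GMNN encodes geminin, which blocks CDT1 and so prevents a second loading. It was at 106 and 74.9 CPM in H1299 (log2 ratio -0.51, -0.56 to -0.45) and at 78.6 and 88.9 CPM in HCT116 (0.18, 0.11 to 0.24). DTL, the adaptor by which a ubiquitin ligase marks CDT1 for destruction, had ratios of -1.25 and -0.64. GINS2 and CDC45, both parts of the active helicase with MCM2-7, had ratios of -0.88 and -0.51 in H1299 and of -0.44 and -0.07 in HCT116, where the unnumbered feature of GINS2 gave -0.98. The counting interval of CDC45 in HCT116 held 0 (-0.20 to 0.06), and with the size factor its ratio there was above 0.

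Nucleotide supply had the lowest summed ratio of the 7 roles in HCT116, at -1.79, against -1.06 in H1299. With joined names added the nucleotide supply sum was -0.94 in HCT116 and -0.69 in H1299. TYMS, thymidylate synthase (chromosome 18, 657604 to 673578), makes the thymidylate of the cell from deoxyuridylate. It was at 209 and 80.0 CPM in H1299 and at 296 and 50.1 CPM in HCT116, giving log2 ratios of -1.38 (-1.43 to -1.34) and -2.56 (-2.63 to -2.49). HCT116 had the higher TYMS level with DMSO and the lower one with DAC+SB, and the difference of -1.18 (-1.26 to -1.10) was the largest of any of the 39 in the direction of HCT116. Without TYMS the sum of the other genes had a log2 ratio of -0.50 in HCT116. RRM1, the large subunit of ribonucleotide reductase, was at 57.2 and 28.8 CPM in H1299 and at 89.6 and 34.1 CPM in HCT116 (-0.99 and -1.39). RRM2, the small subunit, had ratios of -0.67 and -0.61, which were -0.21 and 0.31 once features that join RRM2 with another gene were added.

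Fork polymerase, clamp and binding genes had summed log2 ratios of -0.52 in H1299 and -0.48 in HCT116 (-0.22 with the size factor). POLA1, the catalytic subunit of polymerase alpha, had ratios of -0.96 and -0.87, and POLD3, a subunit of polymerase delta, -1.05 and -0.66 (-1.27 in HCT116 from its unnumbered feature). PRIM1, the catalytic subunit of primase, was at 28.3 and 22.3 CPM in H1299 and at 34.1 and 17.2 CPM in HCT116 (-0.34 and -0.99). RFC2, a subunit of the loader that places the PCNA clamp, was at 50.5 and 47.5 CPM in H1299 (-0.09, -0.16 to -0.02) and at 40.5 and 20.2 CPM in HCT116 (-1.002, -1.12 to -0.89). The HCT116 ratio of RFC2 was just past 2-fold, and it was -0.87 with the denominator that leaves out mitochondrial and ribosomal protein genes, -0.74 with the size factor and -0.88 from its unnumbered feature. RPA2, of the single-strand binding complex RPA, had ratios of -0.67 and -0.74. PCNA had -0.72 and -0.57, but its numbered feature, with 1560 counts in H1299 with DMSO, was not listed in H1299 DAC+SB, and its other feature alone gave -0.07 there.

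FEN1, the nuclease that trims the ends of lagging-strand fragments, had the highest ratio of the 39 in HCT116. It was at 41.6 and 60.8 CPM there (0.55, 0.47 to 0.63) and at 23.0 and 19.0 CPM in H1299 (-0.27, -0.38 to -0.16). The HCT116 ratio depended on how features were named. A numbered FEN1 feature was listed with DAC+SB only, with 423 counts in H1299 and 1208 in HCT116, while a feature joining FEN1 with its neighbour FADS2 was listed with DMSO only, with 790 and 2253 counts. With joined names added the FEN1 ratio was -0.35 in HCT116 and -0.88 in H1299.

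The fork checkpoint and cohesion genes had summed ratios of -0.98 in H1299 and -0.29 in HCT116, the second being -0.029 with the size factor and -0.15 with the other denominator. CLSPN encodes claspin, the mediator through which ATR activates the checkpoint kinase CHK1. It was at 155 and 74.7 CPM in H1299 (-1.05, -1.10 to -1.003) and at 125 and 118 CPM in HCT116 (-0.09, -0.14 to -0.04, and 0.05 to 0.17 where the depth was scaled in other ways). Both kinds of CLSPN feature gave this contrast, with -1.13 and -0.91 for the numbered and unnumbered features in H1299 and -0.11 and -0.05 in HCT116. TIPIN, of the fork protection complex, had ratios of -0.48 and -0.29. DSCC1, part of the alternative clamp loader that supports cohesion, had -0.95 and -1.08.

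The repair genes had summed ratios of -0.84 and -0.77 (-0.51 in HCT116 with the size factor). UNG, with the lowest ratio of the 39 in H1299 and the second lowest in HCT116 (chromosome 12, 109097574 to 109110992), encodes uracil-DNA glycosylase, which removes uracil from DNA. It was at 50.8 and 9.59 CPM in H1299 and at 54.9 and 9.33 CPM in HCT116, which is 5.30-fold and 5.89-fold lower (log2 ratio -2.41, -2.53 to -2.28, and -2.56, -2.72 to -2.40). Of all genes compared, 0.171% in H1299 and 1.23% in HCT116 had a lower ratio than UNG. Its numbered and unnumbered features gave -2.96 and -2.32 in H1299 and -2.71 and -2.48 in HCT116.

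BRIP1, a helicase of the Fanconi anaemia pathway (chromosome 17, 61681266 to 61863521), was at 14.0 and 4.77 CPM in H1299 and at 14.7 and 3.96 CPM in HCT116, giving log2 ratios of -1.55 (-1.75 to -1.36) and -1.89 (-2.15 to -1.64). In HCT116 its numbered feature, with 108 and 70 counts, gave 0.06 and its unnumbered one, with 810 and 84, gave -2.58. The remaining repair genes were closer to their DMSO levels. RAD51AP1, a factor of homologous recombination, had -0.71 and -0.52, USP1, the enzyme that removes ubiquitin from PCNA and FANCD2, -0.66 and -0.59, and the helicase BLM -0.51 and -0.30. EXO1, an exonuclease of mismatch repair and end resection, was at 19.4 and 16.5 CPM in H1299 (-0.23, -0.35 to -0.11) and at 28.3 and 29.8 CPM in HCT116 (0.07, -0.04 to 0.18).

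The chromatin and histone supply genes had summed ratios of -0.57 and -0.29, over a wide range. The second was -0.031 with the size factor, -0.16 with the other denominator and -0.71 from features without a number. CDCA7 and HELLS, which together form a nucleosome remodelling complex needed for DNA methylation of repeats, were lower in both lines. CDCA7 (chromosome 2, 173354820 to 173368997) was at 59.0 and 17.7 CPM in H1299 and at 58.9 and 17.6 CPM in HCT116, giving log2 ratios of -1.73 (-1.83 to -1.64) and -1.74 (-1.86 to -1.62). HELLS was at 124 and 60.5 CPM in H1299 and at 120 and 55.8 CPM in HCT116 (-1.04 and -1.11). The DMSO and the treated levels of both genes were thus nearly the same in the lines. With the size factor the ratios of HELLS were -0.95 in H1299 and -0.85 in HCT116, short of 2-fold. WDR76 had ratios of -1.08 and -1.58, CHAF1B, of the histone chaperone CAF-1, -0.61 and -0.60, and CASP8AP2, which is needed for histone gene expression, -0.61 and -0.40. ATAD2, a bromodomain protein with the most DMSO counts of the 39 in H1299, was at 322 and 236 CPM there and at 102 and 73.7 CPM in HCT116 (-0.45 and -0.47).

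NASP and SLBP, both of which serve histone supply, had ratios above 0 in HCT116, and SLBP did in H1299 as well. NASP, the chaperone of free H3 and H4, was at 144 and 100 CPM in H1299 (-0.52, -0.57 to -0.48) and at 155 and 190 CPM in HCT116 (0.29, 0.25 to 0.34). SLBP binds the stem-loop of histone mRNA and was at 52.3 and 65.5 CPM in H1299 (0.32, 0.26 to 0.39) and at 102 and 113 CPM in HCT116 (0.15, 0.09 to 0.20). Ratios above 0 in NASP, SLBP and GMNN rested on numbered features. Their unnumbered features gave -0.50 for SLBP in H1299, and -0.25, -0.43 and -0.33 for NASP, SLBP and GMNN in HCT116. With features without a number only, the median over all genes compared was -0.17 in H1299 and -0.45 in HCT116. The HCT116 values of these genes thus lay above that median. In H1299 the numbered SLBP feature had 414 counts with DMSO and 2062 with DAC+SB. UBR7, a reader of the histone H3 tail, had ratios of -0.52 and 0.00, the second being -0.54 from its unnumbered feature.

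CCNE2 and E2F8 together had ratios of -1.60 and -0.73, the second being -0.46 with the size factor and -1.24 from features without a number. E2F8, an E2F family member that represses E2F targets (chromosome 11, 19224063 to 19241620), was at 13.9 and 3.78 CPM in H1299 and at 14.3 and 4.24 CPM in HCT116, giving log2 ratios of -1.87 (-2.09 to -1.67) and -1.75 (-2.002 to -1.51). CCNE2 is cyclin E2, which activates CDK2 at the start of the S phase. It was at 17.5 and 6.55 CPM in H1299 (-1.41, -1.58 to -1.25) and at 11.4 and 11.3 CPM in HCT116 (-0.01, -0.19 to 0.16). In HCT116 its numbered and unnumbered features gave 0.47 and -0.40. The difference of 1.40 (1.17 to 1.64) was the largest of the 39 in the direction of H1299.

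**Figure D3:**
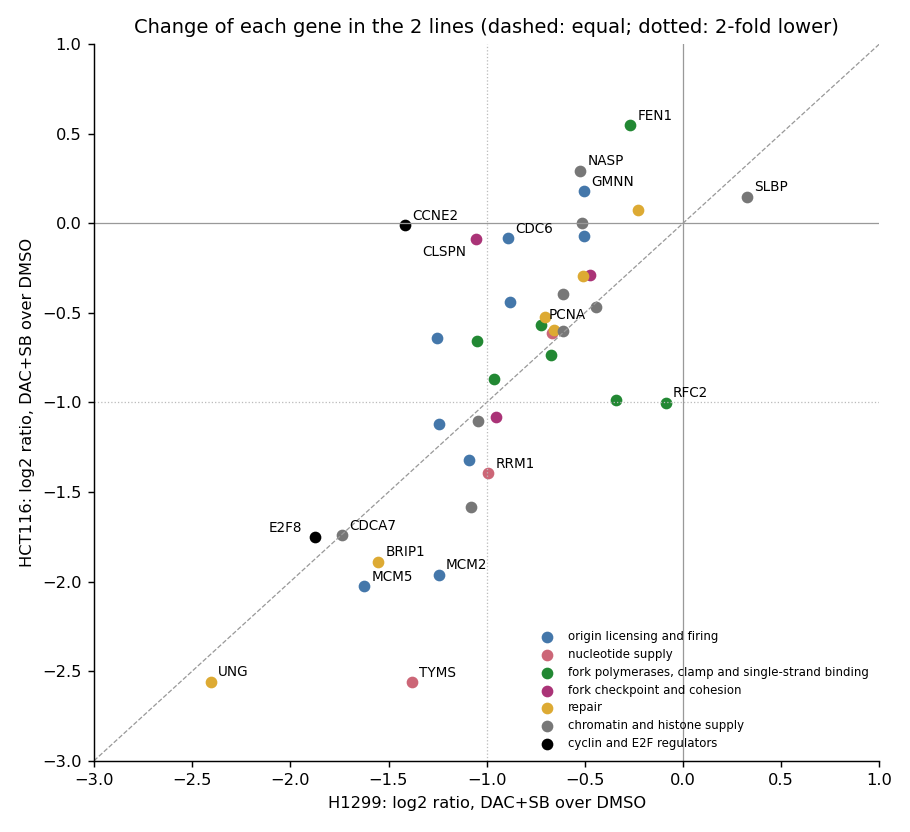
Log2 ratio of DAC+SB over DMSO of each of the 39 genes in H1299 (horizontal axis) and HCT116 (vertical axis), coloured by role, with the diagonal of equal change dashed and 2-fold lower dotted. UNG, E2F8 and CDCA7 lie near the diagonal far from 0, CCNE2 and CLSPN lie above it and TYMS and RFC2 below it.

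Across the 39 genes, the counting interval of the difference between lines lay below 0 for 10 genes, which had the lower ratio in HCT116, beside 46.5% of all genes. It lay above 0 for 18 genes, beside 29.1%, and held 0 for the rest. These counts depended on the setting, being 7 and 24 with the size factor, 9 and 20 with the other denominator, and 14 and 10 with features without a number only. TYMS, RFC2, MCM2, PRIM1, WDR76, MCM5, RRM1, BRIP1, MCM6 and SLBP made up the 10. CCNE2, CLSPN, NASP, FEN1, CDC6 and GMNN led the 18. No replicate measures how much such differences vary between cultures.

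The promoters of the genes were read for the letters of factors known to drive them. RefSeq windows of 300 bases (250 before and 50 after the gene's start, GRCh38.p14) were found for 30 of the 39, and not for MCM5, MCM4, RPA2, WDR76, CCNE2, POLD3, ATAD2, DSCC1 and E2F8. Shown first are 30-base windows around an E2F match in the genes that had one and were among the 6 with the lowest ratio in either line, since these carry the largest differences. Capitals mark the match, on either strand, to one of 4 short E2F words. The first of these is TTCCCGC, the next ones are TTGGCGC and then TTCGCGC, and the last of them reads TTGCCGC.
TYMS: cgcgggacggccGCGGGAAaaggcgcgcgg
MCM2: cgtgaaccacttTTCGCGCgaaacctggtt
UNG: gcgggccgcttgGCGCCAAttgctgaccgc
CDCA7: ctgtgtcccaacGCGGGAAagacagcccga
BRIP1: agggggcgggagGCGGGAAttcgtctcggg
They lie at chr18:657602-657631, chr3:127598402-127598431, chr12:109097580-109097609 and chr2:173354795-173354824 on the plus strand and at chr17:61863509-61863538 on the minus strand. In TYMS and CDCA7 the first base of the match is 39 and 65 bases before the start, in UNG 5 bases before it, and in MCM2 and BRIP1 4 and 3 bases after it. MCM2 and UNG each hold 2 overlapping matches, and the UNG match shares letters with a CCAAT.

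An E2F match was in 23 of the 30 windows (76.7%), beside 13.0% of 35116 RefSeq promoters of the same length. The 7 without these letters were FEN1, NASP, GMNN, SLBP, RRM2, CDC45 and TIPIN, and they include the 4 genes with the highest ratios in HCT116. From unnumbered features alone these 4 had ratios of -0.48 (FEN1), -0.25 (NASP), -0.33 (GMNN) and -0.43 (SLBP) there. Over all genes compared, features without a number gave a median of -0.45 in HCT116. From unnumbered features EXO1 (0.09), CLSPN (-0.05) and CDC6 (-0.09), which had a match, lay above all 4. The median log2 ratio was -0.89 with and -0.51 without a match in H1299, and -0.64 and 0.15 in HCT116. From unnumbered features alone the medians were -0.91 and -0.50, then -0.88 and -0.43, so the median above 0 rested on numbered features. CCAAT, the letters bound by NF-Y, was on either strand in 21 of 30 (70%), beside 34.6% of all promoters. The median log2 ratio with and without CCAAT was -0.72 and -0.51 in H1299, and -0.57 and -0.60 in HCT116. TTTGAA, the letters of the CHR element of genes that peak later in the cycle, was in 2 (6.67%), RRM1 and BRIP1, beside 15.2%. The 250 bases before the start of BRIP1 are shown because they hold 3 CCAAT on the opposite strand (ATTGG, in capitals), at chr17:61863529-61863778 on the minus strand.
BRIP1 upstream: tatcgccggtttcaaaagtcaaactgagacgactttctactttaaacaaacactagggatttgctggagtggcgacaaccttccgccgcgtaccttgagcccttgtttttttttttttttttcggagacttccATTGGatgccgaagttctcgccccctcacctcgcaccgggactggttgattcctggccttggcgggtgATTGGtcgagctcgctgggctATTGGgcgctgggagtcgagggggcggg
A match of letters is a description of the sequence, and binding was not measured.

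The sum of the 39 genes was then taken per cell, after each cell was thinned at random to 3300 counts. This left out 402 HCT116 DAC+SB cells with fewer counts and no cell of another library. The median cell held 9 counts of the 39 genes with DMSO and 4 with DAC+SB in H1299. In HCT116 it held 8 and 5. The 10th to the 99th percentiles that were taken all lay lower with DAC+SB in both lines, while the highest cell held 28 counts with DMSO and 29 with DAC+SB in H1299. The 90th percentile was 15 and 10 counts in H1299 and 13 and 9 in HCT116, and cells with no count of any of the 39 numbered 57 of 3578 and 301 of 3726 in H1299, and 35 of 3658 and 154 of 3925 in HCT116. In H1299 the DAC+SB cells had 0.333 times the DMSO value at the 25th percentile (6 counts with DMSO and 2 with DAC+SB). At the 99th they had 0.810 times (21 and 17 counts). The gap in counts was thus the same at both, and these are ratios of small whole numbers. In HCT116 the ratio was 0.333 at the 10th percentile, 0.6 at the 25th and 0.7 at the 99th.

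A cell was called high where its sum was above the 90th percentile of the DMSO cells of its line, more than 15 counts in H1299 and more than 13 in HCT116. The limit itself fixes the DMSO shares, apart from ties in whole counts. These DMSO shares are therefore not compared between the lines, and their intervals measure nothing further. In H1299, 254 of 3578 DMSO cells (7.10%, Clopper-Pearson interval 6.28 to 7.99) and 56 of 3726 DAC+SB cells (1.503%, 1.14 to 1.95) were high. In HCT116 347 of 3658 DMSO cells (9.49%, 8.56 to 10.5) and 48 of 3925 DAC+SB cells (1.22%, 0.903 to 1.62) were high. At the other end the limit was 3 counts, the 10th percentile of the DMSO cells in each line, which again fixes the DMSO shares. Cells with at most 3 counts were 12.6% and 45.7% of the H1299 libraries and 13.1% and 36.3% of the HCT116 libraries. These shares are ranges of one measure and not cell cycle phases. The median mitochondrial share was 15.8% and 18.6% in HCT116 with DMSO and DAC+SB. Without cells over 25% mitochondrial counts, the share of high DAC+SB cells stayed within the interval given above in both lines. The shares at the low end were not recomputed this way. The summed log2 ratio of HCT116 was -0.66 without cells over 25% mitochondrial counts.

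**Figure D4:**
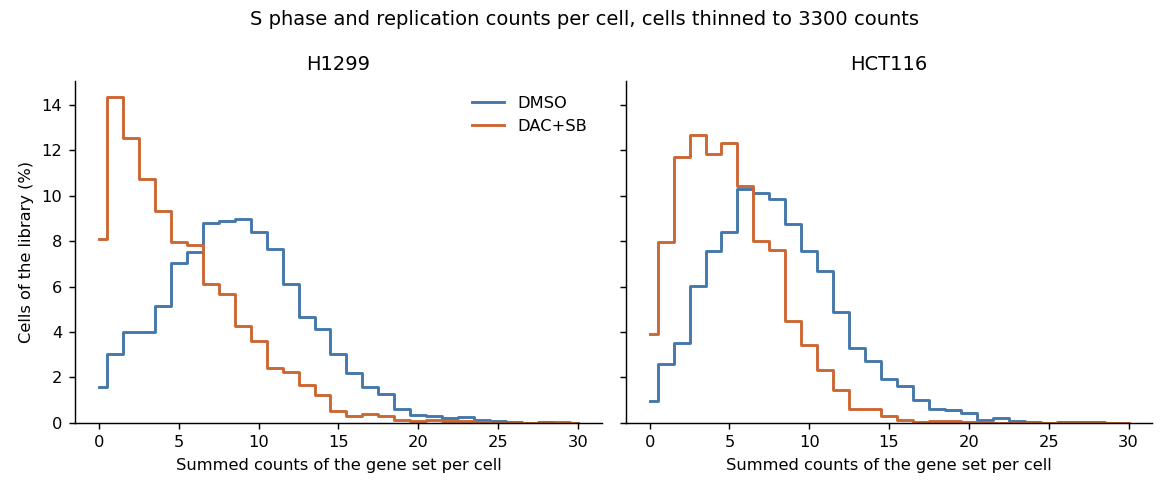
Share of cells (vertical axis, percent of the library) by summed counts of the 39 genes (horizontal axis) in cells thinned to 3300 counts, for DMSO and DAC+SB in each line. The median lies at 9 and 4 counts in H1299 and at 8 and 5 in HCT116.

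The genes varied together from cell to cell. For each gene, the cells of a library above the 75th percentile of the sum of the other 38 genes were compared with those at or below the 25th. Since sums are small whole numbers with ties, the upper group held 17.8% to 24.8% of a library and the lower group 25.01% to 38.2%, depending on the gene and library, and the ratios of different libraries are not compared. All 39 genes had more counts per cell in the upper group in each of the 4 libraries, and the interval of the ratio lay above 1 for 38 of them with DMSO and 39 with DAC+SB in H1299, and for 38 and 36 in the HCT116 libraries. To set this beside other genes, every feature was thinned a second time, and all genes with as many thinned counts in a library as the members had were split in the same way. The ratio was above 1 for all 39 members again, beside 62.5% of all such genes (DMSO) and 64% (DAC+SB) in H1299 and 62.6% and 67.7% for HCT116. The interval lay above 1 for 39 and 39 members in H1299, beside 18.4% and 24% of all, and for 38 and 33 members in HCT116, beside 14.9% and 19.1%. The first thinning gave the values that follow. The median ratio was 2.19 and 3.54 in the H1299 and 1.81 and 1.88 in the HCT116 libraries. In H1299 DAC+SB CDC6 reached 10.2 (5.81 to 19.5), RAD51AP1 9.80 (6.55 to 15.2), E2F8 9.14 (2.67 to 48.5, with 3 counts in the lower group), CLSPN 7.83 (6.06 to 10.2) and ATAD2 7.75 (6.64 to 9.09). CCNE2 had the highest ratio in H1299 DMSO, 5.13 (2.92 to 9.61), and DTL the highest in both HCT116 libraries, 3.05 (2.20 to 4.29) and 4.81 (3.15 to 7.52). With DAC+SB UNG was at the low end, at 2.15 (1.25 to 3.75) for H1299 and 1.21 (0.687 to 2.09) for HCT116.

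The S phase sum was also set against a sum of 52 G2/M genes, none of them a member. Cells above the DMSO median of their line in both sums were 20.04% of the DMSO and 8.02% of the DAC+SB library of H1299, and 16.8% and 5.78% of those of HCT116. Cells above it in the S phase sum only were 21.0% and 5.15% of the H1299 libraries and 23.9% and 7.72% of the HCT116 libraries. Cells above it in the G2/M sum only were 28.98% and 28.1% of the H1299 libraries and 32.3% and 22.6% of the HCT116 libraries. Cells at or below it in both were 29.96% and 58.7% of the H1299 libraries and 27.0% and 63.9% of the HCT116 libraries. The class low in both was thus the one that was larger with DAC+SB in both lines, and the class high in the S phase sum alone was the smallest with DAC+SB in H1299. TUBB4B, a G2/M gene that was itself higher with DAC+SB, made up 977 of the 3783 CPM of the G2/M sum in HCT116 DAC+SB. Without it the class low in both was 31.1% and 61.1% of the H1299 and 26.9% and 72.6% of the HCT116 libraries, and the class high in G2/M alone was 13.9% of HCT116 DAC+SB.

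**Figure D5:**
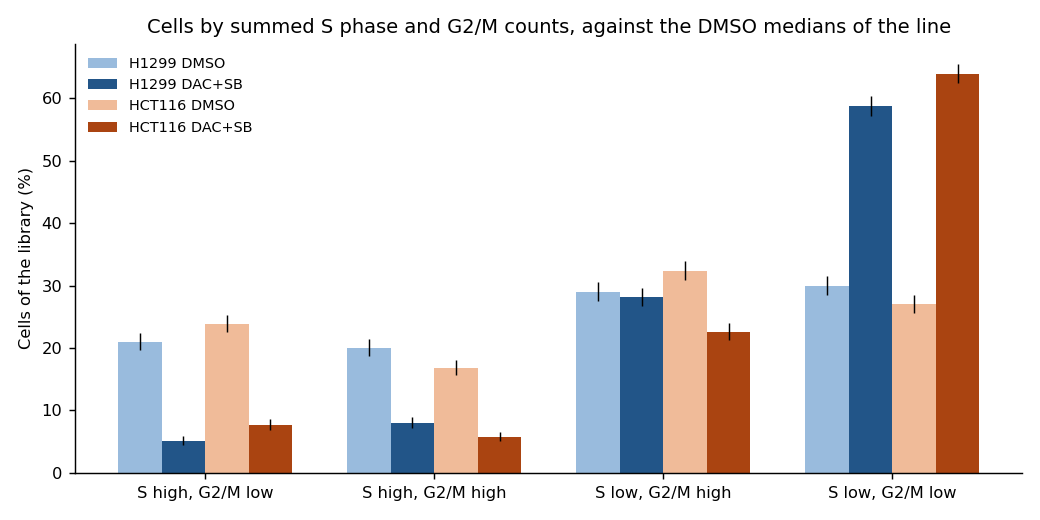
Share of cells of each library (vertical axis, percent) in 4 classes by the summed counts of the 39 S phase genes and of 52 G2/M genes, each above or not above the DMSO median of the line, in cells thinned to 3300 counts. Cells low in both make up 29.96% and 58.7% of H1299 and 27.0% and 63.9% of HCT116 with DMSO and DAC+SB.

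The S phase and G2/M sums were more strongly linked with DAC+SB. Over single cells of a library, which share its preparation, Spearman's rho between the sums was 0.16 in the 3578 H1299 DMSO cells and 0.64 in the 3726 DAC+SB cells, and -0.09 in 3658 HCT116 DMSO cells and 0.43 in 3925 DAC+SB cells (Pearson's r 0.11, 0.48, -0.11 and 0.36). Without TUBB4B rho was 0.16, 0.65, -0.10 and 0.47. Cells above the 90th percentile of their own library held a median of 15 G2/M counts with DMSO and 18 with DAC+SB in H1299, where cells at or below the median of their library held 16 and 4. For H1299 with DMSO the direction turned with the groups: the ratio of these medians was 0.938, and 1.23 between cells above the 75th and at or below the 25th percentile. In HCT116 the high cells held 13 and 15, and the low cells 17 and 9 (without TUBB4B 12 and 12, and 16 and 6). Before thinning, the high and low cells had median totals of 17570.5 and 16929 counts with DMSO and 16999.5 and 14816 with DAC+SB in H1299, and of 16623 and 16264, then 9304 and 9052, in HCT116. The median TE share of the high cells of H1299 was 0.152% and 1.94%, against 0.182% and 2.94% in the low cells. In HCT116 it was 0.273% and 4.48% in the high cells and 0.273% and 4.97% in the low cells. TE counts are part of the total on which the cells were thinned.

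Other genes of the pathway, from a list drawn up by name, lay lower as well. Of 48 other replication genes compared, 13 were lower in H1299 and 21 in HCT116, and none was 2-fold higher, beside 7.34% and 20% lower of all genes. TOP2A (-0.49 and -1.13) is on this list and on the G2/M list, so in HCT116 it counts among the lower genes of both. The helicase subunit MCM3 had log2 ratios of -1.65 and -1.56, CDT1 -1.37 and -1.75, and POLE3 and POLE2, subunits of polymerase epsilon, -1.83 and -1.31 in H1299 and -1.68 and -2.05 in HCT116. UHRF1, which brings the maintenance methyltransferase to the fork, was at 76.5 and 31.5 CPM in H1299 and at 124 and 28.3 CPM in HCT116 (-1.28 and -2.13). At the upper end were RPA3 (0.24 and 0.69) and the origin recognition subunit ORC4 (0.15 and 0.82), with RNASEH2A at 0.96 in H1299 and ORC5 at 0.55 in HCT116.

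Of the 32 regulators of entry into the S phase compared in H1299, 13 were lower and 4 higher, beside 7.34% lower and 18.3% higher of all genes. Of 31 in HCT116, 15 were lower and 3 higher, beside 20% and 16.2%. The shares of lower regulators were above the background. The higher ones were too few to read their shares as different from it. CCND2, with 1 count with DMSO and 79 with DAC+SB in HCT116, was not compared there. E2F1, an activating E2F, was at 35.4 and 9.92 CPM in H1299 and at 10.7 and 4.88 CPM in HCT116 (-1.84 and -1.13), and FOXM1 had -1.55 and -1.99. In HCT116 CCND1 (cyclin D1) had -2.60 and CDKN2A, which encodes p16 and ARF, -1.86, and in H1299 E2F5 had -1.73. CDKN1A, CDKN2D and CDKN1C, 3 of the inhibitors of cyclin-dependent kinases on the list, were at the other end, while CDKN2A, CDKN2C and CDKN1B had -1.06, -1.28 and -0.40 in H1299 and ratios below 0 in HCT116 too. CDKN1A (p21) was at 52.5 and 119 CPM in H1299 and at 30.5 and 102 CPM in HCT116 (1.18 and 1.74), CDKN2D (p19) had 1.64 and 2.53, and CDKN1C (p57) 4.19 and 2.50. CCND2 had 4.27 in H1299, from 22 counts with DMSO to 412 with DAC+SB. CCNE1, the paralogue of CCNE2, had 0.64 in H1299 and -0.58 in HCT116, whereas CCNE2 had its lower ratio in H1299.

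Of the 52 G2/M genes, 2 were lower in H1299 (CKS1B at -1.23 and CBX5 at -1.18) and 22 in HCT116, beside 7.34% and 20% of all genes, and 1 was higher in each line, the tubulin gene TUBB4B (1.06 and 1.57). Their sum had a log2 ratio of -0.36 in H1299 and -0.50 in HCT116, against -0.79 and -0.65 for the 39 S phase genes. Without TUBB4B the G2/M sum was at 5904 and 4308 CPM in H1299 (log2 ratio -0.45) and at 5008 and 2805 CPM in HCT116 (-0.84), so in HCT116 it was further from 0 than the S phase sum. HMGB2 had -0.87 and -1.97, and TMPO and CENPA -1.55 and -1.52 in HCT116. CDC20, the activator of the anaphase-promoting complex, had 0.69 and 0.52, CKS2 0.24 and 0.11, and MKI67, the gene of the proliferation marker Ki-67, -0.64 and -0.95.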

How the data were processed

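Single cells of 2 lines with DMSO or DAC+SB were measured in 4 libraries, 1 per group. The authors deposited a count table of genes and another of TE, in which a row gives a feature, a cell name and a whole number of 1 or more. Reads were processed with CASAVA and STAR and GRCh38 (hg38) was used, per the submitters' processing notes. Not given in the sources used here were the counting tool, the annotation, the filter that kept these cells and whether a count is a UMI. Of the 61838 gene features, 18591 carry a number after the name, whose meaning is not given, and such features are listed only from a library sum of 10. The counts of all features of a single name were summed per library and divided by gene plus TE counts. The 2419 names that join several genes entered in an alternative only.

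Every cell was used, no doublet caller was run and free RNA in droplets was not measured. Sums have exact Poisson, ratios exact conditional binomial and shares exact Clopper-Pearson 95% intervals, and differences between lines an interval from a normal approximation. All cover counting error only. Cells were thinned by a hypergeometric draw to 3300 counts, and all features by a second draw, added after seeing the data, for shares over all genes. Ratios and thinning were tested on simulated data. Versions were Python 3.11.15, numpy 2.4.6, pandas 2.3.3 and scipy 1.17.1.

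The members and lists were chosen with earlier results of these data known. Described singly are the 6 lowest and 4 highest genes by log2 ratio in each line, the 5 with most DMSO counts and the largest difference between lines in each direction, with others inside their role. Of each further list the 3 lowest and 3 highest in each line are named, with UHRF1, CDKN1A, CCNE1, E2F1 and MKI67. Promoters follow the genes among the 6 lowest in both lines. TYMS, MCM2 and CDCA7, which are among the 6 lowest in 1 line only, were added after their values were seen, and so were the genes named in the comparisons of cells. Gene positions are from GENCODE v29 and promoters from RefSeq. Chromosome 8 sequence is not shown.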

Additional observations from a re-analysis of the deposited data

Results flagged for a closer look

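For 5 of the 39 genes the log2 ratio of DAC+SB over DMSO was below 0 in H1299 and above 0 in HCT116, which is 12.8%, beside 10.7% of the 12644 genes compared in both lines. With 1 library per group, these differences between the lines were not tested. The ratio in HCT116 minus that in H1299 was 0.82 for FEN1, 0.82 for NASP, 0.68 for GMNN, 0.52 for UBR7 and 0.30 for EXO1. The HCT116 ratio itself was 0.55 for FEN1, 0.29 for NASP, 0.18 for GMNN, 0.07 for EXO1 and 0.00 for UBR7, and the counting interval of the last 2 held 0. With features listed without a number only, FEN1, NASP and GMNN were below 0 in both lines, and UBR7 was at -0.51 in H1299 and -0.54 in HCT116, while EXO1 was at -0.16 and 0.09. Over all genes compared, the median with such features was -0.17 in H1299 and -0.45 in HCT116.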

How the results depend on the processing

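With 1 library per group every value lacks a replicate check, and no library could be left out. Depth limits the counting intervals, the cells that can be thinned (402 of HCT116 DAC+SB were left out) and the numbered features, which are listed only from a library sum of 10. No paired analysis was possible because each group is 1 library. Both summed ratios stayed below 0 under each setting tried. In H1299 the log2 ratio of the sum was -0.72 when mitochondrial and ribosomal protein genes were left out of the denominator, -0.70 with a median-of-ratios size factor, -0.74 with joined names added, -0.84 without the 5% of cells with most counts, -0.84 as a mean over cells, -0.84 without ATAD2 and -0.82 with features without a number only, a setting chosen after seeing the data. In HCT116 it was -0.51, -0.39, -0.58 and -0.67 under the first 4 of these, -0.68 with numbered features only where listed in both libraries, -0.66 without cells over 25% mitochondrial counts, -0.50 without TYMS and -0.87 with features without a number only. The difference between lines of 0.14 was 0.21, 0.31, 0.11, 0.16 and 0.18 with the other denominator, the size factor, shared numbered features, without the top 5% of cells and as a mean over cells, and -0.0509 with features without a number only. Under the last of these the median over all genes compared was -0.17 in H1299 and -0.45 in HCT116, against -0.07 and -0.23 with all features. At 1.5-fold 27 genes were lower in H1299 and 22 in HCT116, beside 21.3% and 35.2% of all genes, and at 4-fold 1 and 3, beside 0.349% and 3.69%. The size factor moved the log2 ratio of every gene by 0.09 in H1299 and 0.26 in HCT116. Under it 10 of the 39 genes were 2-fold lower in each line, beside 5.65% and 13.2% of all genes. Of the sums by role, adding joined names gave -0.69 (H1299) and -0.94 (HCT116) for nucleotide supply. For other roles the log2 ratio itself changed by a factor of more than 1.5, in HCT116 only. This is not a 1.5-fold change in level. With the size factor chromatin and histone supply was -0.0315, checkpoint and cohesion -0.0288, fork polymerases -0.22, licensing -0.38, repair -0.51 and CCNE2 with E2F8 -0.46. With the other denominator the first 2 of these were -0.16 and -0.15. With features without a number only chromatin and histone supply was -0.71 and CCNE2 with E2F8 -1.24. Leaving TUBB4B out of the G2/M sum, or reading promoter medians from features without a number, was chosen after seeing the data. In HCT116 the counting intervals of CDC45, CCNE2, UBR7 and EXO1 held 0. Of these, CDC45 and CCNE2 turned above 0 with the other denominator and with the size factor. UBR7 turned to -0.54 with features without a number only. Ratios of other single genes turned in direction as follows, and the cause was not tested. FEN1 in HCT116 was -0.35 with joined names and -0.48 with shared numbered features or features without a number only, and RRM2 in HCT116 was 0.31 with joined names. CDC6 in HCT116 was 0.0531 with the other denominator, 0.18 with the size factor and 0.0405 as a mean over cells. CLSPN in HCT116 was 0.0458 and 0.17 under the first 2 of these, and RFC2 in H1299 was 0.0037 with the size factor. With features without a number only, NASP and GMNN in HCT116 were -0.25 and -0.33, and SLBP was -0.50 in H1299 and -0.43 in HCT116. The ratio of median summed counts per cell in HCT116 was 0.625 thinned and 0.289 unthinned. High cells with DAC+SB were 7.14% in H1299 and 5.61% in HCT116 above the 75th DMSO percentile, and in HCT116 0.357% above the 95th and 0.841% with cells thinned to 6000 counts. Between cells above the 75th and at or below the 25th percentile of their library the G2/M count ratio was 1.23 for H1299 with DMSO (0.938 as described above) and 6.67 with DAC+SB, and 0.824 and 2.14 for HCT116. The TE share ratio between them was 1.0 and 0.695 in the H1299 libraries.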
